A study of Homo sapiens with 6 samples.

Results

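Genes that bring glucose into the cell, trap it and commit it to glycolysis were followed across 6 RNA-seq libraries of pancreatic ductal adenocarcinoma (PDAC) cells. The set holds 10 of the 41768 named genes in the deposited table, chosen by name: the glucose transporters SLC2A1 and SLC2A3, the hexokinases HK1 and HK2, the phosphofructokinases PFKL, PFKM and PFKP, and the bifunctional regulators PFKFB2, PFKFB3 and PFKFB4. All 10 were found under those symbols. The libraries were made from polyadenylated RNA of 2 cell lines, PANC-1, long used as a human PDAC model, and one that the labels call 90. Each line had 1 library labelled NC, taken as the control, and 2 labelled siALDOA, numbered 1 and 2, where si was taken to mean a small interfering RNA (siRNA). The labels explain neither the name 90 nor the letters NC, and do not say if the numbers 1 and 2 mark distinct siRNAs or repeats. Since separate cultures are not stated either, the p-values rest on a spread between libraries that may be technical.

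Facilitative transporters of the SLC2A (GLUT) family let glucose down its gradient into the cell, and hexokinases phosphorylate it so that it cannot leave. Phosphofructokinase then adds a further phosphate to fructose 6-phosphate, the committed step of glycolysis, and works as a tetramer of the liver (L), muscle (M) and platelet (P) type subunits. Its strongest activator, fructose 2,6-bisphosphate, is made and broken down by the PFKFB enzymes, each of which carries a kinase and a phosphatase activity. PDAC cells are known for high glucose uptake, and SLC2A1, HK2, PFKFB3 and PFKFB4 are textbook targets of the hypoxia-inducible factors.

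Depth was 17.8 to 21.8 M (mega) fragments per library, recovered from the values, and levels are in FPKM (fragments per kilobase of gene per M fragments). ALDOA, the siRNA target, was below NC in all 4 siALDOA libraries, at 262 and 318 FPKM against 726 in 90 and at 501 and 462 against 906 in PANC-1. The libraries also differed along GC content. Genes in the lowest eighth of transcript GC stood at a median log2 change from NC of 1.40 in siALDOA 1 and 0.12 in siALDOA 2 of 90, and of -1.02 and 0.56 in those of PANC-1. Summed epithelial and ductal markers ranged from 4852 to 6643 FPKM in 90 and from 3395 to 4360 in PANC-1. There KRT7 (6.24 to 11.5 FPKM), CDH1 (1.18 to 2.05), EPCAM and KRT19 lay below all libraries of 90, KRT8 (1523 to 1969 FPKM against 1074 to 1506) lay above them, and KRT18 overlapped them. The 4 mesenchymal markers summed to 605 to 813 FPKM in 90 and 1986 to 2330 in PANC-1, nearly all from VIM. While VIM, CDH2 and SPARC lay above all libraries of 90 in PANC-1, FN1 lay below them (0.369 to 0.510 FPKM against 10.8 to 11.1). The 5 leukocyte markers summed to 31.3 to 51.3 FPKM in 90 and 124 to 162 in PANC-1, nearly all from CD68, while PTPRC was at most 0.0169. The 6 fibroblast markers summed to 1.31 to 1.77 and 10.5 to 14.4 FPKM, mostly COL1A1, and the 3 endothelial markers to 3.65 to 3.83 and at most 0.0357. Acinar, endocrine and erythroid markers summed to under 1 FPKM in every library, with INS at 0 in all of them. The part of these marker differences in the results below was not tested.

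SLC2A1, HK2, PFKL and PFKFB3 were lower in PANC-1 than in 90, by 3.56-, 3.39-, 2.06- and 2.77-fold in mean FPKM. HK1, PFKM and PFKP did not pass the test, and PFKP was the most abundant of the 10 in both lines. In limma fits of log2(FPKM + 1) over the 12592 genes averaging 1 FPKM or more, with terms for line and siALDOA, 4 of the 9 tested members were called lower in PANC-1 and 0 higher at a Benjamini-Hochberg adjusted p under 0.05. Over all tested genes 18.4% were called lower and 20.4% higher. The median log2 difference was -0.70 over the 9 members and 0.13 over all tested genes. Each of the 9 was above 1 FPKM in every library, so none passed the filter through one line alone. The tenth, SLC2A3, averaged 0.397 FPKM and was not tested. In 6 of the 10 members all 3 PANC-1 libraries lay below all 3 of 90, and in 0 above. Among the tested genes 25.1% had PANC-1 wholly below 90, against 5 of the 9 tested members.

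**Figure D1:**
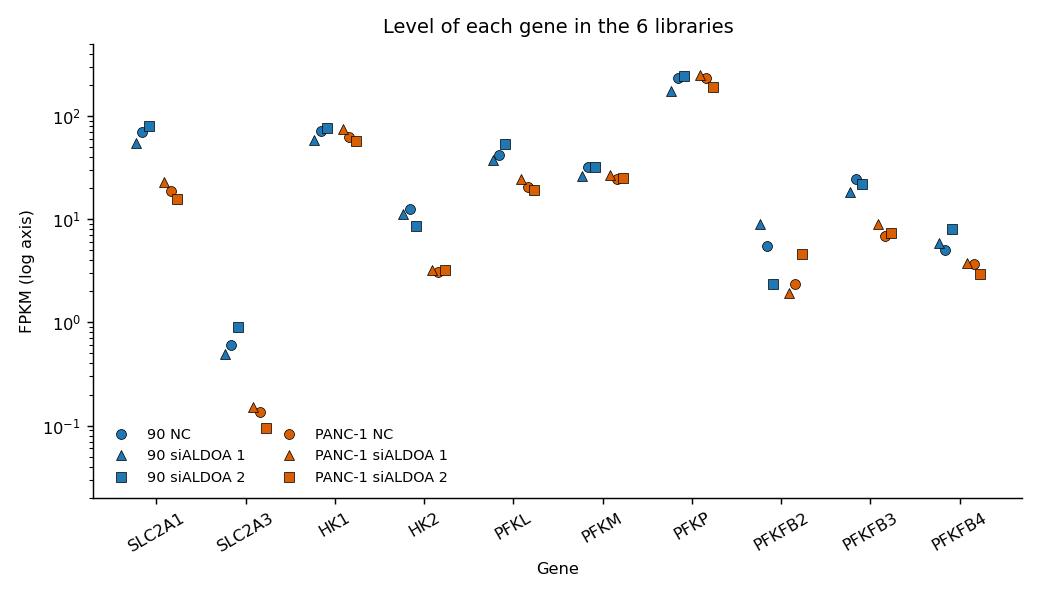
Level of each of the 10 genes in the 6 libraries, in FPKM on a log axis, with 90 in blue, PANC-1 in orange, circles for NC, triangles for siALDOA 1 and squares for siALDOA 2. The orange points of SLC2A1, SLC2A3, HK2, PFKL, PFKFB3 and PFKFB4 lie below all blue points of the gene, while those of HK1, PFKM, PFKP and PFKFB2 overlap them.

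**Figure D2:**
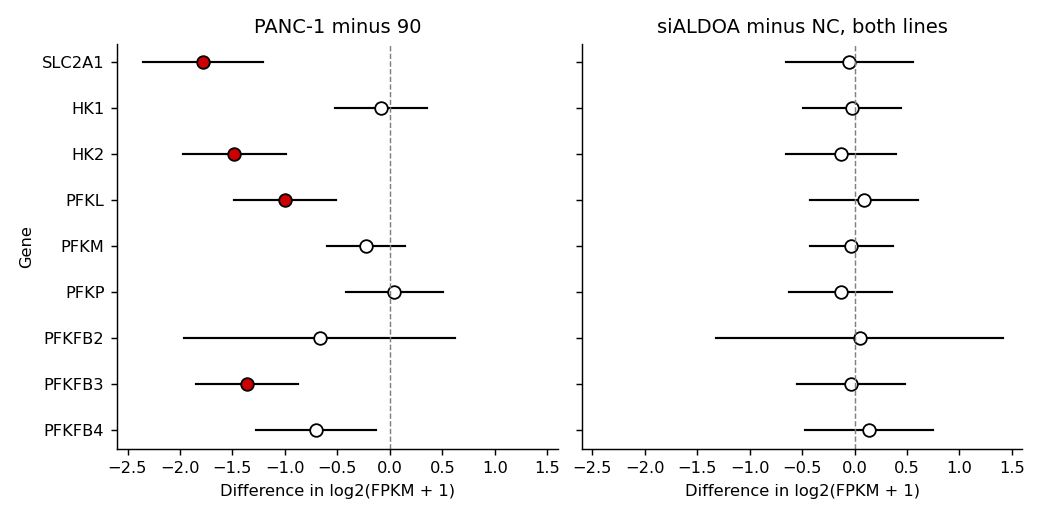
Log2 difference of PANC-1 minus 90 for the 9 tested genes with 95% confidence intervals from the limma fit, filled in red where the adjusted p is under 0.05. SLC2A1, HK2, PFKFB3 and PFKL are called, and PFKP and HK1 lie near 0.

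SLC2A1 (GLUT1), the basal glucose transporter of most proliferating cells, showed the largest difference of the tested members. In 90 it stood at 70.8, 54.6 and 80.0005 FPKM in the NC, siALDOA 1 and siALDOA 2 libraries, and in PANC-1 at 19.0, 23.0 and 15.7 FPKM in the same order. The lowest library of 90 was above the highest of PANC-1 by more than the range within either line. The log2 difference was -1.78 (SE 0.222, 95% interval -2.35 to -1.21, limma adjusted p 0.00324). SLC2A1 lies on chromosome 1 at 42925375 to 42959176 of GRCh38 (minus strand, GENCODE v29). SLC2A3 (GLUT3), a high-affinity transporter best known from neurons, was the least abundant member. It stood at 0.600, 0.495 and 0.907 FPKM in 90, resting on 42, 38 and 68 fragments. In PANC-1 it stood at 0.135, 0.151 and 0.0949 FPKM, resting on 11, 13 and 7 fragments. The lines did not overlap, and the mean was 5.25-fold higher in 90. With a filter at a mean of 0.1 FPKM it entered the test, at a log2 difference of -0.56 (SE 0.127, limma adjusted p 0.0254, with 16.4% of genes lower). Its near-identical paralog SLC2A14 was at 0 in every library except for 1 fragment in siALDOA 1 of PANC-1. No source here says how reads shared by the pair were counted, so the split between them is uncertain. SLC2A3 made up 0.84%, 0.90% and 1.12% of the summed FPKM of the pair SLC2A1 and SLC2A3 in 90, and 0.71%, 0.65% and 0.60% in PANC-1. These shares did not overlap (exact permutation p = 0.1, the smallest that 3 libraries against 3 allow, 0.2 adjusted over 8 shares).

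Of the hexokinases, HK1, the broadly expressed form, did not pass the test between the lines and HK2, the form of muscle, fat and many tumours, did. HK1 stood at 72.5, 58.5 and 76.0 FPKM in NC, siALDOA 1 and siALDOA 2 of 90 and at 62.8, 74.6 and 57.8 in PANC-1, and the ranges overlapped (log2 difference -0.08, 95% interval -0.52 to 0.36, limma adjusted p 0.763). HK2 stood at 12.6, 11.3 and 8.59 FPKM in 90 and at 3.07, 3.25 and 3.23 in PANC-1. The PANC-1 libraries lay close together (3.18 ± 0.10 FPKM, SD, n = 3), and all of them were below the lowest library of 90. The log2 difference was -1.48 (SE 0.192, 95% interval -1.98 to -0.99, limma adjusted p 0.00365). HK2 was 14.8%, 16.2% and 10.1% of the summed FPKM of HK1 and HK2 in 90, and 4.66%, 4.18% and 5.29% in PANC-1. The PANC-1 mean minus the 90 mean was -8.99 percentage points (exact permutation test, two-sided, p = 0.1, the smallest that 3 libraries against 3 allow, 0.2 adjusted over 8 shares).

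HK2 lies on chromosome 2 at 74833981 to 74893359 of GRCh38 (plus strand, GENCODE v29). Because 4 of these genes were lower in the same line, the 250 bases before their RefSeq starts (GRCh38.p14) were searched on both strands for ACGTG and GCGTG, the core letters bound by hypoxia-inducible factors. Of 35116 RefSeq windows of that length, 43.2% held at least 1 of the motifs. The letters CACGTG, the E-box read by MYC and related factors, hold ACGTG on both strands and were in 6.34% of windows. Windows were found for 8 of the 10 members. The HK2 windows held 3 and 6 matches, those of the second counting each of its 2 CACGTG runs on both strands. The stretches of these windows outside annotated exons of the gene are shown 5′ to 3′ with matched letters in capitals, first that before the first HK2 start at chr2:74833877-74833980 and then the window of a start inside the gene at chr2:74834920-74835169, both on the plus strand.
HK2 upstream: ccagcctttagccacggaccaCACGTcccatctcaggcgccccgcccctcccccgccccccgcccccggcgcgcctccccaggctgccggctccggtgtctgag
HK2 internal: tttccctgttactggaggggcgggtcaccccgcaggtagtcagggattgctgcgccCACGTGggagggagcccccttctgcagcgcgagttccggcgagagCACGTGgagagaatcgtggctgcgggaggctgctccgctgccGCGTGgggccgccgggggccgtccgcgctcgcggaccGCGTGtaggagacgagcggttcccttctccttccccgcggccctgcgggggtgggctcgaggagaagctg
The SLC2A1 window held 0 matches, and an annotated exon of the gene covered its upstream end, so it is not shown. A match is a run of letters, not a bound site, and binding was not measured here.

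Among the phosphofructokinase subunits the platelet type led in both lines. PFKP stood at 236, 177 and 244 FPKM in NC, siALDOA 1 and siALDOA 2 of 90 and at 232, 249 and 193 in PANC-1. The ranges overlapped almost wholly (log2 difference 0.04, 95% interval -0.42 to 0.51, limma adjusted p 0.888). The sign of that small difference turned with the scaling and was negative after median-ratio scaling (-0.09) and quantile normalization (-0.07). PFKM, the muscle type, stood at 32.3, 26.1 and 32.2 FPKM in 90 and at 24.4, 27.0 and 25.1 in PANC-1, and did not pass the test (log2 difference -0.23, 95% interval -0.60 to 0.14, limma adjusted p 0.287). PFKL, the liver type, stood at 41.6, 37.4 and 53.6 FPKM in 90 and at 20.6, 24.5 and 19.4 in PANC-1. Here every library of 90 exceeded every library of PANC-1. The log2 difference was -0.997 (SE 0.189, 95% interval -1.48 to -0.51, limma adjusted p 0.0128). This call was lost without NC of 90 (limma adjusted p 0.0864), without NC of PANC-1 (0.0826) and without siALDOA 2 of PANC-1 (0.0526), at log2 differences of -1.01, -1.01 and -0.90. Both fits without an NC library take the line difference from the siALDOA libraries alone, so they are not separate checks.

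As shares of the summed subunit FPKM, PFKL and PFKP did not overlap between the lines, in a design whose smallest p is 0.1. PFKL was 13.4%, 15.6% and 16.2% in 90 and 7.44%, 8.14% and 8.17% in PANC-1, a mean difference of -7.16 points. PFKP was 76.2%, 73.6% and 74.0% in 90 and 83.8%, 82.9% and 81.3% in PANC-1, a mean difference of 8.05 points (exact permutation p = 0.1 for each, 0.2 adjusted over 8 shares). The shares of one sum are not independent, and the PFKP level itself did not pass the test. PFKM held 9.75% to 10.9% in 90 and 8.80% to 10.6% in PANC-1, and these overlapped (exact permutation p = 0.3). After each library's trend along GC content was removed, the PFKM mean difference was -1.55 points (exact permutation p = 0.1, not adjusted). Summed over the 3 subunits the lines stood at 294 ± 47.3 and 272 ± 31.7 FPKM (SD, n = 3), a gap smaller than either spread. PFKL lies on chromosome 21 at 44300051 to 44327376 of GRCh38 (plus strand, GENCODE v29). Its RefSeq window held 1 GCGTG, shown in capitals in the stretch before the first exon, chr21:44299803-44300050, plus strand.
PFKL upstream: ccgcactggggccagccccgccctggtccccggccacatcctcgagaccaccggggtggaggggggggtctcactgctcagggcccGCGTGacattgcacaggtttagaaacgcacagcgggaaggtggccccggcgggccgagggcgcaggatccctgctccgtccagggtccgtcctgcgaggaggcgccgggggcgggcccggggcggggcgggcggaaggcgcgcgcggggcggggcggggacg

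**Figure D3:**
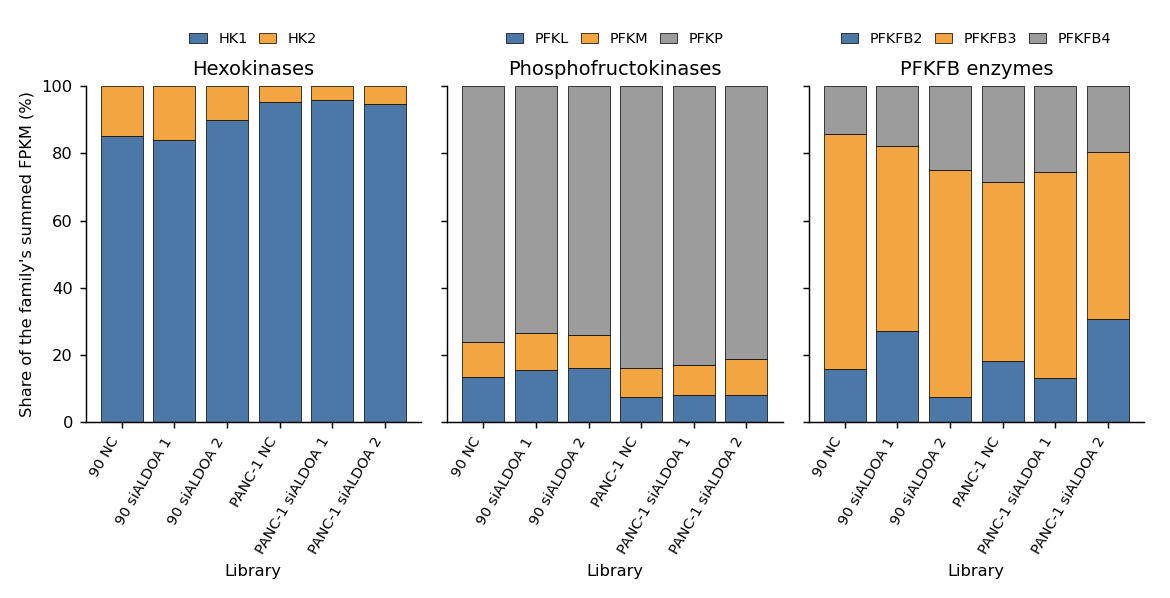
Share of each gene in the summed FPKM of its family, in percent, for the hexokinases, phosphofructokinase subunits and PFKFB enzymes, with 1 bar per library. HK2 takes 10.1% to 16.2% in 90 and 4.18% to 5.29% in PANC-1, PFKP is the main subunit throughout, and the PFKFB2 share moves between libraries of the same line.

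The PFKFB enzymes summed to 33.5 ± 1.49 FPKM in 90 and 14.2 ± 1.10 in PANC-1 (SD, n = 3), and PFKFB3 was the most abundant of them in every library. PFKFB3, the form with the highest kinase over phosphatase activity, stood at 24.6, 18.4 and 21.8 FPKM in NC, siALDOA 1 and siALDOA 2 of 90 and at 6.91, 9.05 and 7.42 in PANC-1. The lowest library of 90 was above the highest of PANC-1. The log2 difference was -1.36 (SE 0.188, 95% interval -1.84 to -0.88, limma adjusted p 0.00454). PFKFB4, best known from testis and induced by hypoxia in tumours, stood at 5.03, 5.87 and 8.06 FPKM in 90 and at 3.67, 3.73 and 2.95 in PANC-1. The lines did not overlap, but the difference missed the threshold (log2 difference -0.70, SE 0.223, limma adjusted p 0.0612). It passed after rescaling to TPM (-0.75, limma adjusted p 0.0421, with 19.2% of genes lower). The same held after each library's GC trend was removed (-0.72, adjusted p 0.0154, with 26.9% of genes lower). With the siALDOA numbers crossed between the lines it passed at -0.70 (limma adjusted p 0.0210), in a fit that called 7594 of 12592 genes. It also passed without siALDOA 1 of both lines (-0.78, adjusted p 0.0267), a fit that called 7201 of 12592 genes, with 20.8% lower.

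PFKFB2, the heart form whose kinase activity is raised by insulin signalling, varied most within a line. It stood at 5.52, 8.96 and 2.38 FPKM in NC, siALDOA 1 and siALDOA 2 of 90 and at 2.36, 1.91 and 4.59 in PANC-1, a highest-to-lowest ratio of 3.77 and 2.40, against at most 1.602 for the other tested members. The high siALDOA library was number 1 in 90 and number 2 in PANC-1, and the lines overlapped (log2 difference -0.67, SE 0.503, 95% interval -1.96 to 0.62, limma adjusted p 0.367). With 1 library left out the difference ran from -0.26 (without siALDOA 1 of 90) to -1.16 (without siALDOA 2 of 90), and without siALDOA 1 of both lines it was -0.12. Its transcript GC, 43.5%, was the lowest of the 10 members, and its log2 changes from NC, 0.61 and -0.95 in 90 and -0.21 and 0.74 in PANC-1, had the sign of the median of genes of like GC in each library (0.26, -0.26, -0.11 and 0.30). With the GC trend removed the changes were 0.04, -0.68, 0.17 and 0.37, and PFKFB2 and PFKM passed the test as lower in PANC-1 (log2 differences -0.85 and -0.33, limma adjusted p 0.0414 and 0.0402), in a fit that called 5942 of 11405 genes, with 26.9% of genes lower. Within the family, PFKFB2 held between 7.37% and 30.7% of the summed FPKM, and the 3 shares did not separate the lines (exact permutation p of 0.2 to 0.6).

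PFKFB3 lies on chromosome 10 at 6144934 to 6254644 of GRCh38 (plus strand, GENCODE v29) and has 2 RefSeq windows. The first window, chr10:6144671-6144920, held 1 match, which reads GCGTG on the other strand, and the second, shown up to its exon at chr10:6202682-6202865, held 1 CACGTG, which counts on both strands. They are given for comparison with the HK2 and PFKL stretches, since these genes were called lower in the same line.
PFKFB3 first: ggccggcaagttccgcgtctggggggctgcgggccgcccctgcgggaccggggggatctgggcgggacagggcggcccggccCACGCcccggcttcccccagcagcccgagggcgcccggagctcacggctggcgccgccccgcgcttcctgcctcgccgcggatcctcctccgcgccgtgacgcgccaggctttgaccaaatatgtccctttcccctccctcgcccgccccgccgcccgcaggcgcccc
PFKFB3 second: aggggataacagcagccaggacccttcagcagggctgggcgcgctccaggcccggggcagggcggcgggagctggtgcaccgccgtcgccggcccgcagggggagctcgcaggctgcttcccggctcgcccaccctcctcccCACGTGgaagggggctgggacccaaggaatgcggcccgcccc
HK1, PFKM, PFKP and PFKFB4, which were not called, each also had a match in at least 1 window, though most windows of HK1 and PFKM held none. The 8 members had 25 windows between them. The 43.2% is a share of windows, so a count of genes with a match cannot be set against it.

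In order of mean FPKM the members of 90 ran PFKP, HK1, SLC2A1, PFKL, PFKM, PFKFB3, HK2, PFKFB4, PFKFB2 and SLC2A3. Neighbours overlapped only at HK1 with SLC2A1 and at PFKFB4 with PFKFB2. In PANC-1 the order was PFKP, HK1, PFKM, PFKL, SLC2A1, PFKFB3, PFKFB4, HK2, PFKFB2 and SLC2A3. There PFKM overlapped PFKL, PFKL overlapped SLC2A1, PFKFB4 overlapped HK2 and HK2 overlapped PFKFB2.

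After siALDOA, 0 of the 9 tested members were called in either direction. The limma fit over both lines called 0% of all tested genes, with 43 of 12592 at an unadjusted p under 0.05 and 0 of the members among them, and voom on the recovered fragment counts also called 0 genes (20 at an unadjusted p under 0.05). The log2 differences of siALDOA minus NC were -0.05 for SLC2A1, -0.03 for HK1, -0.13 for HK2, 0.09 for PFKL, -0.03 for PFKM, -0.13 for PFKP, 0.05 for PFKFB2, -0.03 for PFKFB3 and 0.14 for PFKFB4. These values do not show that the genes stayed level. The fit did not call ALDOA, the siRNA target, either (log2 difference -1.12, limma p 0.000907, adjusted p 0.999991). The 95% interval ran from -0.65 to 0.56 for SLC2A1, from -0.66 to 0.39 for HK2, from -0.62 to 0.36 for PFKP and from -1.32 to 1.42 for PFKFB2. Within 90, within PANC-1 and for the difference between their siALDOA effects the fit of the group means likewise called 0% of genes, with 33, 21 and 24 at an unadjusted p under 0.05 and 0 members among them. Those fits take the spread of the single NC libraries to be that of the siALDOA libraries.

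In the values as deposited, no member had all 4 siALDOA libraries on one side of NC of their line, against 3.39% of tested genes with all 4 above and 5.82% with all 4 below. With the GC trend removed, PFKL was above NC in all 4, by 0.11 and 0.25 on the log2 scale in 90 and 0.13 and 0.14 in PANC-1. PFKP was then below NC in all 4, at -0.19 and -0.02 in 90 and -0.03 and -0.10 in PANC-1. Of the 11405 genes with a GC value, 8.54% were above and 8.05% below in that setting, and neither member was called. HK2, PFKM and PFKFB3 lay below NC in both siALDOA libraries of 90 and above NC in both of PANC-1, a pattern of 7.3% of tested genes. With the GC trend removed PFKFB3 kept it, which 10% of genes then showed, while HK2 stood at -0.05 in siALDOA 1 of PANC-1 and PFKM at 0.05 in siALDOA 2 of 90. SLC2A1, HK1 and PFKP were below NC in siALDOA 1 and above it in siALDOA 2 of 90, and the reverse held in PANC-1. PFKL and the untested SLC2A3 showed the same order of signs. Over all tested genes, siALDOA 1 minus siALDOA 2 also ran in opposite directions in the lines (r = -0.86). The share of tested genes with these signs was not counted, so they are not read as particular to these members. For SLC2A1, PFKL and PFKP the median of genes of like GC had these signs too. Without the GC trend SLC2A1 kept them (-0.19 and 0.15 in 90, 0.13 and -0.14 in PANC-1), as did HK1 (-0.17, 0.08, 0.12 and -0.05). The siALDOA minus NC difference over both lines was 1.597 points for the PFKL share and -2.02 points for the PFKP share, each at an exact permutation p of 0.111, the smallest this design allows, and 0.444 adjusted over 8 shares. Both belong to one sum and are not independent. The other 6 shares had exact permutation p of 0.556 to 0.889.

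**Figure D4:**
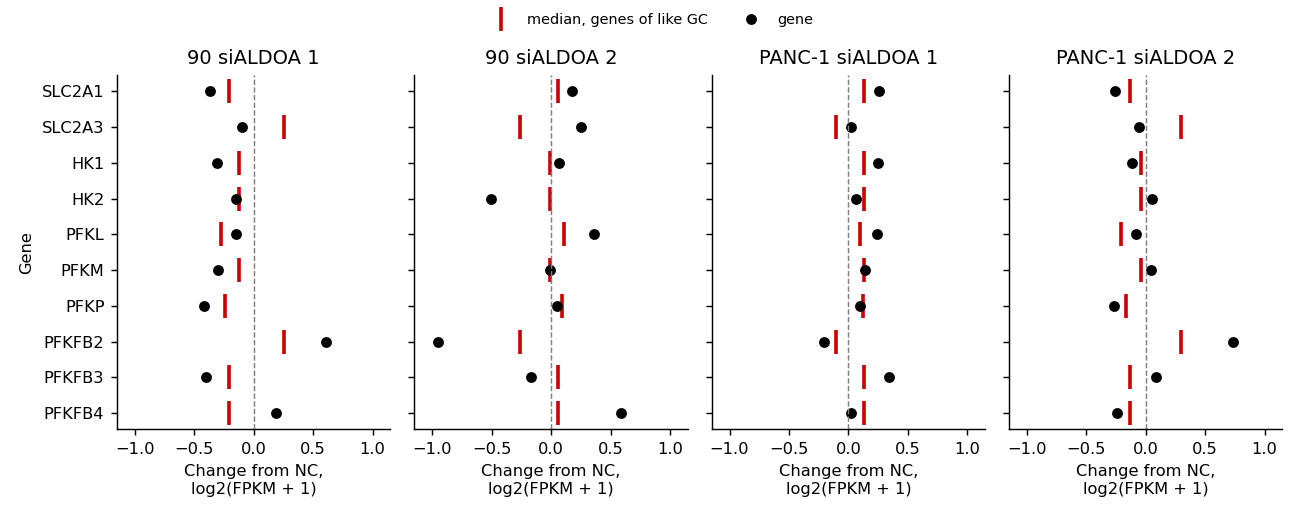
Change of each gene from NC of its line in log2(FPKM + 1), 1 panel per siALDOA library, with black points for the gene and red bars for the median of tested genes of like transcript GC. SLC2A1, SLC2A3, HK1, PFKL and PFKP lie on opposite sides of 0 in siALDOA 1 and siALDOA 2 of each line. PFKFB2 does so with the reverse signs and lies farthest from 0 in 3 of the 4 panels.

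Of 39 further genes of glucose entry and early glycolysis, 21 were tested, 4 were called higher in PANC-1 and 7 lower. Of these calls, 5 concern genes that reached the filter through 1 line alone and so had to differ: SLC2A9, SLC2A10, HKDC1 and FBP1 were under 1 FPKM in every PANC-1 library, and RRAGD in every library of 90. TXNIP, an arrestin that promotes removal of GLUT1 from the cell surface, stood at 75.1, 85.2 and 73.1 FPKM in 90 and at 2.21, 3.17 and 2.53 in PANC-1 (log2 difference -4.44, limma adjusted p 0.000179). It was thus lower in the line in which SLC2A1 was lower. HKDC1, a hexokinase domain protein, stood at 18.1, 17.5 and 20.0 FPKM in 90, above HK2 in each library, and at 0.434, 0.732 and 0.405 in PANC-1 (-3.69, adjusted p 0.000237). ALDOC, the brain aldolase, was lower as well (-3.10, adjusted p 0.000461). RRAGD, a Rag GTPase of the amino acid sensing pathway, was higher in PANC-1 at a log2 difference of 3.05, as were the transporters SLC2A8 (4.93 to 6.46 FPKM in 90, 11.7 to 16.4 in PANC-1, 1.14) and SLC2A11 (0.98).

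The neighbours of the phosphofructokinase step were GPI, ALDOA, FBP1 and TIGAR. GPI, which makes fructose 6-phosphate, stood at 81.6 to 115 FPKM in 90 and 109 to 146 in PANC-1 and did not pass the test (log2 difference 0.35, limma adjusted p 0.229). ALDOA, which takes up the product, was called higher in PANC-1 (0.60, adjusted p 0.0319). FBP1, which runs the step backwards, stood at 2.15, 1.77 and 2.57 FPKM in 90 and at 0, 0.0574 and 0.0669 in PANC-1 (-1.595). It reached the filter through 90 alone, so its limma adjusted p of 0.00215 is no support for the difference. TIGAR, a phosphatase that lowers fructose 2,6-bisphosphate, stood at 1.54, 3.14 and 1.14 FPKM in 90 and at 2.34, 0.896 and 2.85 in PANC-1, with the same high siALDOA libraries as PFKFB2 and no call (0.04, adjusted p 0.956). After siALDOA 0 of the 21 were called in the limma fit and 0 by voom. At an unadjusted p under 0.05 stood 1 of them in the limma fit, ALDOA, the siRNA target.

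By Pearson correlation of log2(FPKM + 1) over the 6 libraries, among 11128 messenger RNA genes, SLC2A1 was most like PITPNM1 (0.9999), SLC48A1 (0.9998) and AP3S2 (0.9995). HK2 was most like ACIN1 (0.9998), PRICKLE1 (0.998) and ALDH3A2 (0.9979), and PFKFB3 was most like KHNYN (0.9985), CES2 (0.9982) and ST5 (0.998). The libraries share their line, and between 1832 and 2179 genes exceeded 0.9 for each member, so these names describe the 6 values and nothing more.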

How the data were processed

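The authors deposited FPKM values per gene and library; HISAT2, featureCounts and hg38 are named in the submitters' processing notes, without versions or strand use. Members and gene lists were chosen with earlier results of these data known. Whole fragment counts and gene lengths were recovered from the FPKM values (FPKM times length times depth whole within 0.002 fragments) for 99.8% of the 27007 genes above 0 and for all 12592 tested genes. This gives 17.8 to 21.8 M (mega) fragments per library. The confidence intervals given for log2 differences come from the limma fits and rest on the spread between libraries, not on counting error alone. Values were analysed as log2(FPKM + 1), which understates changes of low genes, with limma 3.58.1 in R 4.3.3 (trend in the prior variance). Genes of mean FPKM of at least 1 were tested and adjusted together by Benjamini-Hochberg. Fits were tested on simulated data.

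Named were all members and, of 39 pathway genes, up to 3 called per direction with the largest change, plus SLC2A14, TXNIP, GPI, FBP1, TIGAR (C12orf5 in the table) and ALDOA, and the 3 genes most like SLC2A1, HK2 and PFKFB3. Transcript GC came from GENCODE v29 and was known for 90.6% of tested genes; promoter windows came from RefSeq. Alternatives were another pseudocount, filter, scaling, GC correction, prior and block, and each library left out. Voom on the recovered counts, crossed siALDOA numbers and leaving out siALDOA 1 of both lines were chosen after seeing the data.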

Additional observations from a re-analysis of the deposited data

Results flagged for a closer look

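HK2, PFKM and PFKFB3 lay below NC in both siALDOA libraries of 90 and above NC in both of PANC-1. The siALDOA effect of PANC-1 minus that of 90 was 0.38 for HK2 (p 0.459), 0.24 for PFKM (p 0.549) and 0.50 for PFKFB3 (p 0.298) on the log2 scale. The interaction term of the limma fit passed for none of them (adjusted p of 1 for each). The single steps are small, PFKM in siALDOA 2 of 90 standing at 32.2 FPKM against 32.3 in NC, and 919 of 12592 tested genes share the pattern. With the GC trend of each library removed, HK2 (-0.05 in siALDOA 1 of PANC-1) and PFKM (0.05 in siALDOA 2 of 90) no longer had it, and PFKFB3 did.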

How the results depend on the processing

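SLC2A1, HK2 and PFKFB3 were called lower in PANC-1 under every alternative run. Over all genes, 4882 were called between the lines (2567 higher), 3700 after median-ratio scaling (1593 higher), where the median log2 difference moved from 0.13 to 0.02, and 2422 to 4110 with 1 library left out (2424 without NC of 90, 2422 without NC of PANC-1). Both fits without an NC library take the line difference from the siALDOA libraries alone and are not separate checks. The replicate block gave 3258 and changed no member's call. The siALDOA numbers do not pair the lines (r = -0.86 over genes for siALDOA 1 minus 2). Crossed pairing gave 7594 calls (4177 higher), 6 members among them, with PFKFB2 and PFKFB4 added (limma adjusted p 0.0426 and 0.0210). GC correction gave 5942 of 11405 genes, 7 members among them, and leaving out siALDOA 1 of both lines 7201 of 12592. For siALDOA against NC, 17 genes were called without siALDOA 1 of both lines, none of them a member, and 0 under the other alternatives.

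Signs turned for differences near 0. Between the lines PFKP was -0.0937 after median-ratio scaling, -0.066 after quantile normalization, -0.18 without siALDOA 1 of both lines and -0.10 to 0.17 with 1 library left out, and HK1 -0.21 to 0.0072. The PFKFB2 share difference ranged from -1.07 to 9.10 points. For siALDOA, TPM gave 0.0186 (SLC2A1), 0.0415 (HK1), 0.036 (PFKM) and 0.035 (PFKFB3), GC correction -0.0242 (PFKFB2) and 0.0051 (PFKFB3), leaving out siALDOA 1 of both lines 0.0178 (PFKM) and -0.11 (PFKFB2), and voom -0.0246 (PFKFB2). With 1 library left out the siALDOA difference ran from -0.17 to 0.0751 for SLC2A1, -0.12 to 0.0664 for HK1, -0.32 to 0.0599 for HK2, -0.0207 to 0.197 for PFKL, -0.15 to 0.0907 for PFKM, -0.26 to 0.41 for PFKFB2, -0.29 to 0.22 for PFKFB3 and -0.11 to 0.39 for PFKFB4. Leaving out NC of a line makes the siALDOA difference that of the other line alone. The ends of the ranges for HK2, PFKM, PFKFB3 and PFKFB4 are these within-line values. The cause of the other sign changes was not tested. With 1 NC library per line, the spread of NC is not measured, and SLC2A3, on 7 to 68 fragments, is limited by counting.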
